A study of Mus musculus with 6 samples.

Results

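The integrin beta chains are the 8 cell-surface subunits Itgb1 to Itgb8, and they were examined here with their 2 relatives, Itgb2l and Itgbl1. The members were taken by gene symbol from the deposited count table, which gave 10 of its 54532 genes. Poly-A RNA of mouse distal colon was sequenced in 3 libraries labelled wild-type (WT 1 to WT 3) and 3 labelled Itgbl1 -/- (KO 1 to KO 3). Both groups had received dextran sulfate sodium (DSS), which damages the lining of the colon, at 3% in drinking water for 7 days, so no untreated colon is among the libraries, and the comparison asks how the family's transcripts differ between the labels during colitis. The labels give neither strain nor age, do not describe the deleted part of Itgbl1, and give 1 batch date for all 6 libraries. Nothing in them says that the libraries of a group came from separate animals, so the p-values measure only the spread between these samples.

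An integrin is a receptor made of 1 alpha and 1 beta chain that binds extracellular matrix or a partner on another cell and links it to the cytoskeleton. In the gut, chains that pair with laminin-binding alpha chains anchor epithelial cells to the basement membrane, leukocyte chains guide immune cells into the mucosa, and chains that pair with the alpha V chain can release active TGF-beta from its latent complex. Itgbl1 encodes a secreted protein that resembles the cysteine-rich stalk of a beta chain, and Itgb2l encodes a neutrophil glycoprotein related to the beta 2 chain.

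The coding sequences show what makes most of these genes integrin chains. The ligand-binding head of a beta chain holds a metal ion through the residues aspartate, any, serine, any, serine. The site was searched for as codons of these residues followed by a methionine codon. The 30 bases that begin with this site are shown because they separate the 8 classical chains from both relatives. Capitals mark the 5 codons of the site, and coordinates and exons are those of GENCODE M21 on GRCm38.
Itgb1, exon 5, chr8:128713279-128713308, plus strand: GATCTCTCCTACTCTatgaaagatgatctg
Itgb2, exon 5, chr10:77547197-77547226, plus strand: GATCTCTCCTACTCCatgcttgatgacctc
Itgb3, exon 4, chr11:104633469-104633498, plus strand: GACCTGTCTTTCTCCatgaaggatgatctg
Itgb4, exon 5, chr11:115979758-115979787, plus strand: GACTTCTCCAACTCCatgtctgacgatctg
Itgb5, exon 4, chr16:33875873-33875902, plus strand: GACCTCTCCCTCTCCatgaaggatgacttg
Itgb6, exon 4, chr2:60668434-60668463, minus strand: GACCTCTCCGCCTCTatggatgacgacctc
Itgb7, exon 4, chr15:102224372-102224401, minus strand: GACCTGAGCTACTCAatgaaggacgacttg
Itgb8, exon 4, chr12:119192227-119192256, minus strand: GATGTGTCAGCATCAatgcacaataatata
Itgb2l, exon 5, chr16:96435690-96435719, minus strand: ggcctctctggctctgcgcaaggccacctc

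By this search no site was found in Itgb2l, whose line shows the bases that align to the site of Itgb2 and therefore has no capitals. Itgb2 and Itgb2l were the most alike of the translated members named here, with 59.9% identical residues, against 54.2% for Itgb3 and Itgb5 and 50.6% for Itgb3 and Itgb6. Itgbl1 had no site by the same search in its 494 codons, while the other members had 767 to 1818 codons. Cysteine made up 16.2% of its codons, against 3.69% to 7.42% in the other members. Hydropathy was scored with the first residues of each translation left out, so a hydrophobic stretch at the very start is not covered. In the rest of Itgbl1, the most hydrophobic stretch of 19 residues averaged 0.884 on the Kyte-Doolittle hydropathy scale. This is below the 2.35 to 3.36 of the others, whose chains cross the membrane. Itgbl1 shared 31% to 36.3% of aligned residues with the other members.

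Values of the WT and KO libraries are given in the order of their numbers. Gene counts totalled between 13326970 and 18321389 per library. KO 3 had 12.8% of its counts on mitochondrial transcripts, while the remaining libraries had 3.53% to 4.88%. Summed over 12 markers led by Krt8, Krt19 and Epcam, epithelial transcripts stood at 15353, 21918 and 16649 CPM (counts scaled for library size) in the WT libraries and at 1164, 7753 and 56.7 CPM in the KO libraries. Epithelial transcripts, which define a colon sample, were therefore close to absent in KO 3. In such bulk samples, fewer cells of a type and less RNA per cell cannot be told apart.

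Itgbl1 (ENSMUSG00000032925, chromosome 14, 123659971 to 123975618, plus strand, GRCm38), the gene named in the labels, was read 19, 6 and 5 times in WT 1 to WT 3. It was read 12, 4 and 10 times in KO 1 to KO 3. The libraries of the labels overlapped, and the summed reads were 30 under the wild-type label and 26 under the knockout label, with exact Poisson 95% intervals of 20.2 to 42.8 and 17.0 to 38.1 that cover counting error only. The log2 ratio of knockout over wild-type label was -0.19 ± 0.78 (SE; edgeR quasi-likelihood, adjusted p = 0.90), with a 95% interval of -2.03 to 1.65. Reads were counted gene by gene and not exon by exon, so these counts cannot check a deletion of a few exons. They show no loss of Itgbl1 under the knockout label, and each direction below compares labels, not verified genotypes.

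Among the 16861 genes tested, 0 (0%) had an adjusted p under 0.05 by edgeR's quasi-likelihood test, as did 0 of the 10 members, all of which were tested. At an unadjusted p under 0.05 stood 4059 genes (24.1%), with higher knockout values for 1992 (11.8%) and lower ones for 2067 (12.3%). Of the 10 members, 2 had an unadjusted p under 0.05, Itgb3 on the higher side and Itgb4 on the lower, which is close to the share of all genes. Libraries of the labels did not overlap for 5451 genes (32.3%) and for 3 members, Itgb1 and Itgb3 with higher and Itgb4 with lower knockout values. The members' median log2 ratio was -0.04, beside 0.06 over all genes, with 5 members above 0 and 5 below. Other tests made calls among all genes: DESeq2 called 2034 of 30748, limma-voom 0 of 16861 and limma-voom with sample quality weights 1395 of 16861.

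Levels of different genes were compared as CPM per kilobase of gene length, with the length from the deposited table. Under the wild-type label the order was Itgb1, Itgb4, Itgb5, Itgb2, Itgb6, Itgb7, Itgb3, Itgb2l, Itgb8 and Itgbl1, from 124.9 ± 28.0 (SD, n = 3) for Itgb1 to 0.142 ± 0.109 (SD, n = 3) for Itgbl1. Neighbours in that order whose libraries did not overlap were Itgb1 over Itgb4, Itgb4 over Itgb5 and Itgb7 over Itgb3. The libraries of every other pair of neighbours overlapped. Under the knockout label the order was Itgb1, Itgb5, Itgb2, Itgb3, Itgb4, Itgb7, Itgb6, Itgb2l, Itgb8 and Itgbl1, and the neighbours without overlap were Itgb1 over Itgb5 and Itgb8 over Itgbl1. Itgb4 stood at place 2 of 10 under the wild-type label and at place 5 under the knockout label, and Itgb3 stood at places 7 and 4.

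**Figure D1:**
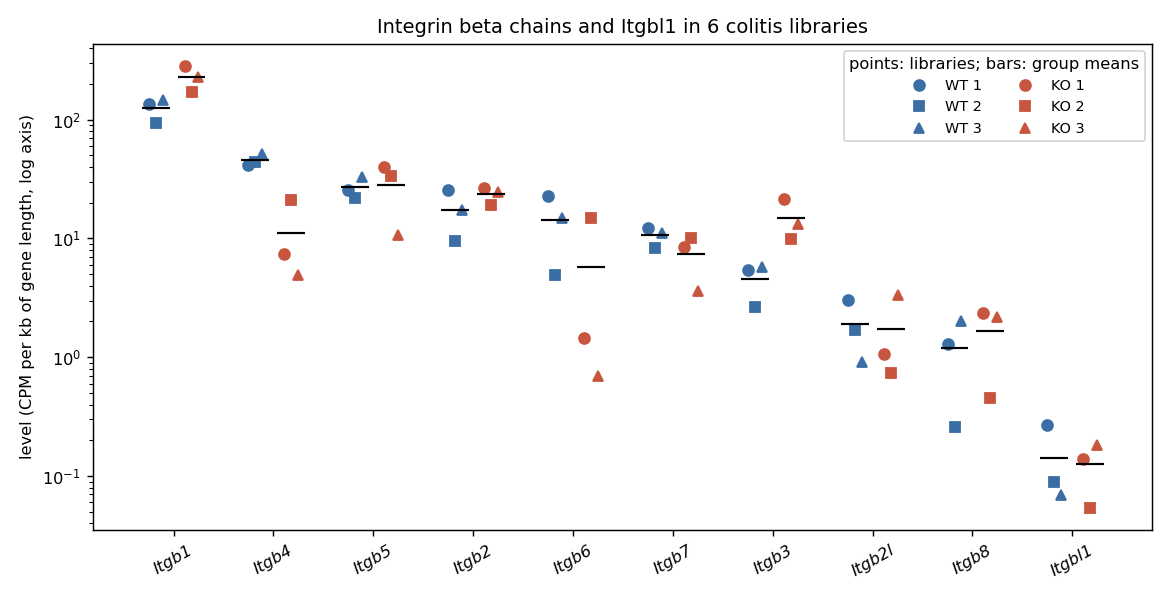
Level of each member in each library as CPM per kb of gene length, on a log axis, with blue points for WT libraries, red points for KO libraries and bars for the group means. Itgb1 is the highest in both groups and Itgbl1 the lowest, the groups are apart for Itgb1, Itgb3 and Itgb4, and the KO libraries of Itgb6 spread over a 21.4-fold range.

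The chains known from epithelium are Itgb4, Itgb6 and, in part, Itgb5 and Itgb8. Itgb4 (ENSMUSG00000020758, chromosome 11, 115974709 to 116008412, plus strand) encodes the beta chain of the hemidesmosome, the junction that fixes epithelial cells to laminin in the basement membrane. Its level was 41.9, 44.0 and 51.5 CPM per kb in WT 1 to WT 3 and 7.41, 21.0 and 4.92 CPM per kb in KO 1 to KO 3. Every library labelled knockout lay below every one labelled wild-type, with KO 2 nearest to them. The log2 ratio was -2.04 ± 0.56 (SE; 95% interval -3.36 to -0.73), and it did not pass the test (edgeR, adjusted p = 0.112). DESeq2 called it at an adjusted p of 0.00570 and limma-voom with quality weights at 0.0249, while limma-voom without weights gave 0.0854. EdgeR without KO 2 gave a log2 ratio of -2.94 with an adjusted p of 0.0158, and without WT 2 an adjusted p of 0.321. An antisense RNA inside the gene, B230344G16Rik, had 0 to 10 reads.

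Itgb4 pairs with the alpha 6 chain alone, and Itga6 had a similar profile. Itga6 stood at 218.2, 268.6 and 392.0 CPM in the WT libraries and at 53.1, 92.7 and 47.9 CPM in the KO libraries, again without overlap. Its log2 ratio was -2.18 ± 0.40 (SE; edgeR, adjusted p = 0.0940). The log2 CPM difference of Itgb4 minus Itga6 was 0.43, 0.20 and -0.12 in WT 1 to WT 3 and -0.03, 0.67 and -0.47 in KO 1 to KO 3. These overlap (exact two-sided permutation p = 0.9, where 0.1 is the smallest p that 3 libraries against 3 allow).

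Of the 8 genes of the hemidesmosome and its laminin ligand, Itga6 among them, 0 passed after adjustment, 2 were lower and 0 higher at an unadjusted p under 0.05, and 6 of 8 log2 ratios lay below 0. Among all genes tested, 12.3% were lower and 11.8% higher at that unadjusted threshold. The median was -1.38, beside 0.06 over all genes. Plec, the plakin that ties the hemidesmosome to keratin filaments, stood at 957.5, 858.6 and 1132 CPM under the wild-type label and at 406.2, 464.3 and 151.0 CPM under the knockout label (log2 ratio -1.53 ± 0.50 (SE), adjusted p = 0.138). Lamb3, the beta chain of that laminin, stood at 275.1, 272.4 and 301.0 CPM against 25.8, 140.8 and 1.63 CPM (adjusted p = 0.293). Both were lower in all 3 libraries labelled knockout. Col17a1, a transmembrane collagen of hemidesmosomes in stratified epithelia, was at most 1.87 CPM in any library and had a log2 ratio of 0.93 (adjusted p = 0.353).

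Itgb4 was then set beside the epithelial markers of the same library. All 12 markers had lower means under the knockout label, and their sums, given above, were lowest in KO 1 and KO 3. Itgb4 minus the mean log2 CPM of the markers was -1.31, -1.74 and -1.16 in WT 1 to WT 3 and -0.20, -1.28 and 3.59 in KO 1 to KO 3. The mean difference was 2.11 higher under the knockout label, with KO 2 inside the wild-type range, so Itgb4 was not lower relative to these markers (exact p = 0.2). The markers' mean log2 CPM alone differed by -4.42, so a gene with equal levels under both labels would show a larger difference. Markers of squamous epithelium, which lines the anal canal next to the distal colon and is rich in Itgb4, were mostly Sprr1a, at 16.9 to 73.2 CPM under the wild-type label and 1.48 to 130.2 CPM under the knockout label. The other 8 summed to 3.39 to 3.99 CPM and 2.42 to 3.72 CPM, with Krt4 at 0 in every library. The part of either epithelium in the Itgb4 values was not tested.

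Itgb6 (ENSMUSG00000026971, chromosome 2, 60598292 to 60722643, minus strand) encodes an epithelial chain that pairs with alpha V and activates latent TGF-beta. It stood at 23.0, 4.90 and 14.8 CPM per kb in the WT libraries and at 1.47, 15.0 and 0.699 CPM per kb in the KO libraries. KO 1 and KO 3 lay below all wild-type libraries, while KO 2 lay within their range. The log2 ratio was -1.31 ± 1.13 (SE; 95% interval -3.99 to 1.36; unadjusted p = 0.283, adjusted p = 0.505). Without KO 2, edgeR gave a log2 ratio of -3.76 with an adjusted p of 0.0364. That fit called 1813 of 17449 genes, and Itgb6 was called in no other alternative. Itgb6 minus Itgav, its alpha chain, was -0.26, -0.70 and -0.28 on the log2 scale in WT 1 to WT 3 and -4.39, -0.67 and -5.44 in KO 1 to KO 3 (exact p = 0.2), so the same 2 libraries stood apart. Itgb6 minus epithelial markers was on average 2.18 higher under the knockout label (exact p = 0.2), while the markers' mean log2 CPM alone differed by -4.42.

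Itgb5 (ENSMUSG00000022817, chromosome 16, 33829665 to 33949338, plus strand) encodes a vitronectin-binding chain found on many cell types. Its level was 25.7, 22.1 and 32.8 CPM per kb in WT 1 to WT 3 and 40.3, 33.3 and 10.7 CPM per kb in KO 1 to KO 3. KO 1 and KO 2 were the highest libraries and KO 3 the lowest. The log2 ratio was 0.06 ± 0.48 (SE; 95% interval -1.06 to 1.18; adjusted p = 0.949), and its sign turned with the test or the library left out. Itgb5 minus epithelial markers was -3.0, -3.71 and -2.79 in WT 1 to WT 3 and 1.26, -1.6 and 3.72 in KO 1 to KO 3. These did not overlap: relative to the markers, Itgb5 was higher in every library labelled knockout (difference 4.30, exact p = 0.1, adjusted p = 0.367 over 11 such comparisons). The mean log2 CPM of the markers alone differed by -4.42. A gene with equal levels under both labels would therefore show a similar difference, so it is not particular to Itgb5.

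Itgb8 (ENSMUSG00000025321, chromosome 12, 119158022 to 119238802, minus strand) encodes the other main activator of latent TGF-beta, used by epithelial, glial and some immune cells. It stood at 1.29, 0.257 and 2.02 CPM per kb in the WT libraries and at 2.35, 0.455 and 2.16 CPM per kb in the KO libraries. WT 2 and KO 2 were low, although they had the highest epithelial marker sums of their groups, and the groups overlapped. The log2 ratio was 0.47 ± 0.83 (SE; adjusted p = 0.753), and its interval of -1.48 to 2.43 leaves changes of either sign undetected. Its differences from the epithelial markers (5.01 higher under the knockout label, exact p = 0.3) and from Itgav (-0.26, exact p = 0.7) overlapped between the labels. As given for Itgb5, the mean log2 CPM of the epithelial markers alone differed by -4.42.

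**Figure D2:**
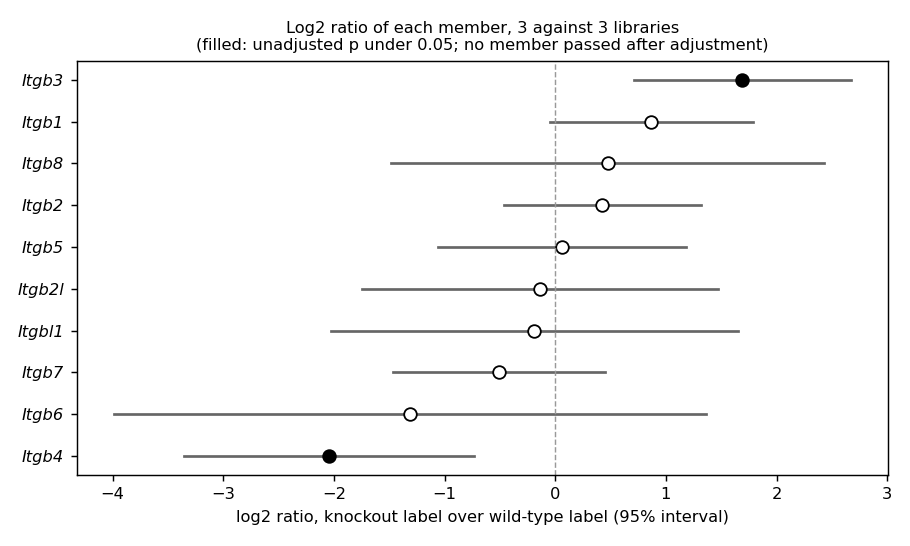
Log2 ratio of the knockout over the wild-type label for each member with its 95% interval from edgeR's quasi-likelihood fit, filled where the unadjusted p is under 0.05. Itgb3 at 1.69 and Itgb4 at -2.04 are the only filled points, and no member passed after adjustment.

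The broadly expressed chains of mesenchyme, vessels and platelets are Itgb1 and Itgb3. Itgb1 (ENSMUSG00000025809, chromosome 8, 128685654 to 128733200, plus strand) encodes the chain with the most alpha partners and serves as a receptor for collagen, laminin and fibronectin. Its level was 134.9, 93.3 and 146.5 CPM per kb in WT 1 to WT 3 and 282.4, 170.4 and 230.6 CPM per kb in KO 1 to KO 3. All libraries labelled knockout lay above all labelled wild-type, with a log2 ratio of 0.87 ± 0.39 (SE; 95% interval -0.05 to 1.78; unadjusted p = 0.0608, adjusted p = 0.228). The 6 fibroblast markers also had higher means, with sums of 1393, 967 and 1794 CPM under the wild-type label and 5121, 2803 and 4402 CPM under the knockout label. Itgb1 minus fibroblast markers differed by -0.20 on the log2 scale with overlap (exact p = 0.5), and the markers' part in the Itgb1 values was not tested.

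Itga5, the alpha chain of the fibronectin receptor, differed by more than Itgb1. It stood at 150.8, 84.6 and 94.2 CPM in the WT libraries and at 364.2, 211.0 and 266.3 CPM in the KO libraries, with a log2 ratio of 1.35 ± 0.36 (SE; adjusted p = 0.110). Itgb1 minus Itga5 was 1.87, 2.17 and 2.66 under the wild-type label and 1.66, 1.72 and 1.82 under the knockout label, without overlap (difference -0.50, exact p = 0.1, adjusted p = 0.3 over 12 partner comparisons). The difference was -0.28 without WT 3 and -0.68 without WT 1. For Itga1, the alpha chain of a collagen receptor, the same difference was -0.25 with overlap (exact p = 0.4).

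Itgb3 (ENSMUSG00000020689, chromosome 11, 104608000 to 104670476, plus strand) encodes the chain of the platelet fibrinogen receptor and, with alpha V, of the vitronectin and osteopontin receptor of vessels, osteoclasts and macrophages. It stood at 5.46, 2.63 and 5.72 CPM per kb in the WT libraries and at 21.5, 9.84 and 13.2 CPM per kb in the KO libraries. The lowest knockout-labelled library, KO 2, lay above the highest wild-type one. The log2 ratio was 1.69 ± 0.42 (SE; 95% interval 0.71 to 2.67) and did not pass after adjustment (unadjusted p = 0.00458, adjusted p = 0.103). DESeq2 called it at an adjusted p of 0.0119 and limma-voom with quality weights at 0.0466, while limma-voom without weights gave 0.0879. EdgeR without KO 2 gave a log2 ratio of 1.86 with an adjusted p of 0.0418, and without WT 2 an adjusted p of 0.303.

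Itgb3 was compared with both its alpha chains. Itga2b, the platelet partner, stood at 5.05, 2.15 and 2.01 CPM in the WT libraries and at 7.76, 13.6 and 11.1 CPM in the KO libraries (log2 ratio 1.82 ± 0.49 (SE), adjusted p = 0.111). Itgb3 minus Itga2b overlapped between the labels (difference -0.18, exact p = 1.0). Itgb3 minus Itgav was -2.60, -1.86 and -1.92 in WT 1 to WT 3 and -0.79, -1.54 and -1.51 in KO 1 to KO 3, without overlap, so Itgb3 was higher relative to alpha V under the knockout label (difference 0.85, exact p = 0.1, adjusted p = 0.3).

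Platelet and endothelial markers stand beside these values. The 7 platelet and megakaryocyte markers, led by Pf4, Itga2b and Ppbp, summed to 30.6, 18 and 20.9 CPM in WT 1 to WT 3 and to 80.4, 196.6 and 130.9 CPM in KO 1 to KO 3, with Gp1bb at 0 in all 6. The 7 endothelial markers summed to 186.2 to 341.8 CPM under the wild-type label and 322.3 to 1327 CPM under the knockout label. Itgb3 minus the 6 platelet markers other than Itga2b differed by 0.28 (exact p = 0.9), but Gp1bb and Treml1 are at or near 0 in all libraries and cannot move. Over the 4 markers that passed the filter on low counts, chosen after seeing the data, the difference was -0.33 (exact p = 0.8), and against Pf4 alone it was -0.87 (exact p = 0.3). Itgb3 minus endothelial markers differed by 0.49 (exact p = 0.4), and the groups overlapped in each of these. The part of either cell type in the Itgb3 values was not tested.

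The leukocyte chains are Itgb2, Itgb7 and the relative Itgb2l. Itgb2 (ENSMUSG00000000290, chromosome 10, 77530252 to 77565708, plus strand) encodes the chain shared by the adhesion receptors of leukocytes. It stood at 25.7, 9.43 and 17.3 CPM per kb in the WT libraries and at 26.6, 19.1 and 24.8 CPM per kb in the KO libraries. WT 2 was lowest and the groups overlapped (log2 ratio 0.43 ± 0.38 (SE), 95% interval -0.46 to 1.32, adjusted p = 0.516). The ratio was 0.094 without WT 2 and 0.78 without WT 1. Its mean difference from 7 markers of all leukocytes moved by 0.01 on the log2 scale (exact p = 1.0), or by 0.51 with the median of the markers in place of their mean (exact p = 0.1). The marker sums ran from 420.6 to 1313 CPM under the wild-type label and from 959.0 to 1251 CPM under the knockout label.

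Itgal and Itgam, both alpha chains of Itgb2, went opposite ways relative to it. Itgb2 minus Itgal, the lymphocyte-rich partner, was 0.41, 0.46 and 0.64 in WT 1 to WT 3 and 0.89, 0.73 and 1.8 in KO 1 to KO 3 (difference 0.63, exact p = 0.1, adjusted p = 0.3). Itgb2 minus Itgam, the partner on neutrophils and macrophages, was 1.27, 1.51 and 1.71 in WT 1 to WT 3 and 0.68, 0.41 and -0.02 in KO 1 to KO 3 (difference -1.14, exact p = 0.1, adjusted p = 0.3). Neither pair of groups overlapped. Itgax, an alpha chain of Itgb2 on dendritic cells and macrophages, was not set against it and stood at 39.3, 20.2 and 34.1 CPM against 19.8, 27.1 and 2.95 CPM (log2 ratio -0.91, adjusted p = 0.460). The 8 T cell markers summed to 64.4 to 123.5 CPM under the wild-type label and 57.6 to 105.2 CPM under the knockout label. Of the 8 neutrophil markers, Ly6g held most of the wild-type signal, with 1704, 471.8 and 897.7 CPM in the WT libraries and 206.6, 832.3 and 10.7 CPM in the KO libraries. The other 7 summed to 438.8, 10.8 and 55.2 CPM against 1289, 1237 and 6918 CPM, without overlap. The 9 macrophage markers summed to 2539, 1062 and 1566 CPM against 1227, 2250 and 550.6 CPM. Their part in the partner differences was not tested.

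Itgb7 (ENSMUSG00000001281, chromosome 15, 102215995 to 102231944, minus strand) encodes the gut-homing chain, which pairs with alpha 4 to bind Madcam1 on mucosal vessels and with alpha E to bind E-cadherin on epithelium. Its level was 12.3, 8.29 and 11.2 CPM per kb in WT 1 to WT 3 and 8.54, 10.1 and 3.59 CPM per kb in KO 1 to KO 3. KO 3 was lowest and the groups overlapped (log2 ratio -0.51 ± 0.41 (SE), 95% interval -1.47 to 0.45, adjusted p = 0.470). Without KO 3 the ratio was -0.20, and without KO 2 it was -0.85. Itgb7 minus leukocyte markers was -2.30, -1.16 and -1.65 in WT 1 to WT 3 and -2.30, -2.32 and -3.91 in KO 1 to KO 3, with overlap at the values of WT 1 and KO 1 (difference -1.14, exact p = 0.2). Without KO 3 that difference was -0.61. Itgb7 minus Itga4 and Itgb7 minus Itgae also overlapped, with differences of -0.67 (exact p = 0.2) and 0.55 (exact p = 0.5).

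Itgb2l (ENSMUSG00000000157, chromosome 16, 96422288 to 96443619, minus strand), the relative of Itgb2 in which the metal ion site was not found, is known from neutrophils. It stood at 3.05, 1.70 and 0.914 CPM per kb in the WT libraries and at 1.07, 0.741 and 3.34 CPM per kb in the KO libraries. The highest library was KO 3 and the groups overlapped (log2 ratio -0.14 ± 0.68 (SE), 95% interval -1.75 to 1.47, adjusted p = 0.916). Itgb2l minus the neutrophil markers was -1.86, 1.94 and -1.07 in WT 1 to WT 3 and -4.74, -4.75 and -3.66 in KO 1 to KO 3, without overlap (difference -4.05, exact p = 0.1, adjusted p = 0.367). The difference was -2.92 without WT 2, and -5.00 with Ly6g left out of the markers, a choice made after seeing the data. Of the 8 markers, 7 had higher means under the knockout label, and their mean log2 CPM alone differed by 3.78. A gene with equal levels under both labels would therefore show a similar difference, so it is not particular to Itgb2l. The 9 markers of immature neutrophils summed to 8.86 to 194.7 CPM under the wild-type label and 259.6 to 1015 CPM under the knockout label. Transcripts of Itgb2 and Itgb2l shared no stretch of 31 bases in GENCODE M21, and Igsf5, annotated on the opposite strand across Itgb2l, had 0 reads.

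**Figure D3:**
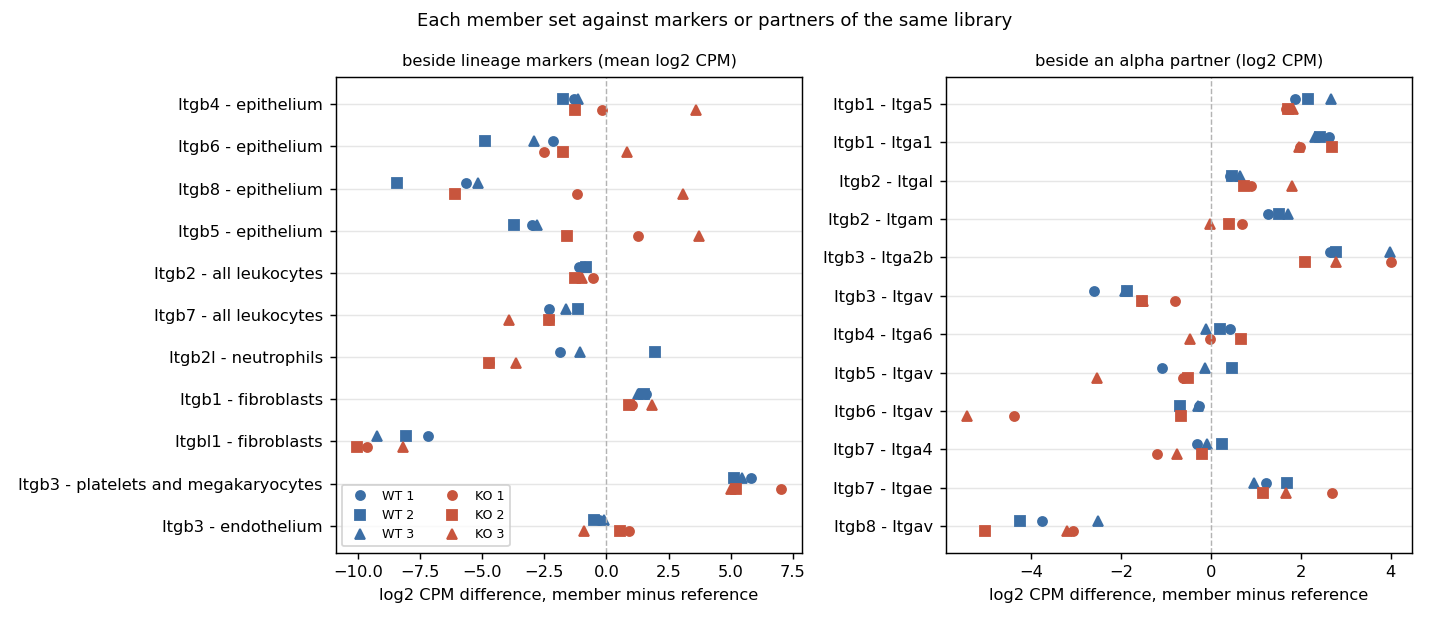
Each member minus the mean of a marker list (left) or minus an alpha partner (right) of the same library, in log2 CPM, with blue for WT and red for KO libraries. A level difference between genes is not read from these values, only how each difference moves between libraries. Between the labels, 2 of 11 marker comparisons (Itgb5 with epithelium, Itgb2l with neutrophils) do not overlap. Nor do 4 of 12 partner comparisons (Itgb1 with Itga5, Itgb2 with Itgal and Itgam, Itgb3 with Itgav). Among all genes tested, the levels of 32.3% do not overlap, though levels are a different measure from these differences.

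The make-up of the beta chain signal was taken as each chain's share of the CPM per kb summed over the members other than Itgbl1. Itgb1 held 49.4%, 50.0% and 51.8% of it in WT 1 to WT 3 and 72.1%, 60.9% and 78.5% in KO 1 to KO 3, a mean of 20.1 percentage points more. Itgb4 held 15.3%, 23.6% and 18.2% in WT 1 to WT 3 and 1.89%, 7.49% and 1.67% in KO 1 to KO 3, 15.3 points less. The share of Itgb3 was 2.00%, 1.41% and 2.02% against 5.49%, 3.52% and 4.48%, and that of Itgb7 was 4.51%, 4.44% and 3.95% against 2.18%, 3.62% and 1.22%.

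These 4 of 9 chains had shares without overlap between the labels, each with the smallest exact p of 0.1 and an adjusted p of 0.225 over the 9. Among all genes tested, the levels of 32.3% did not overlap, though levels are a different measure from shares. Shares of 1 library add up to the whole, so the higher share of Itgb1 and the lower share of Itgb4 are not separate measurements. The other 5 shares overlapped: the mean for Itgb2 was 6.86% and 7.35% under the wild-type and knockout labels, for Itgb5 11.0% and 8.60%, and for Itgb6 5.42% and 1.99%. Itgb8 and Itgb2l stayed under 1.2% in every library.

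**Figure D4:**
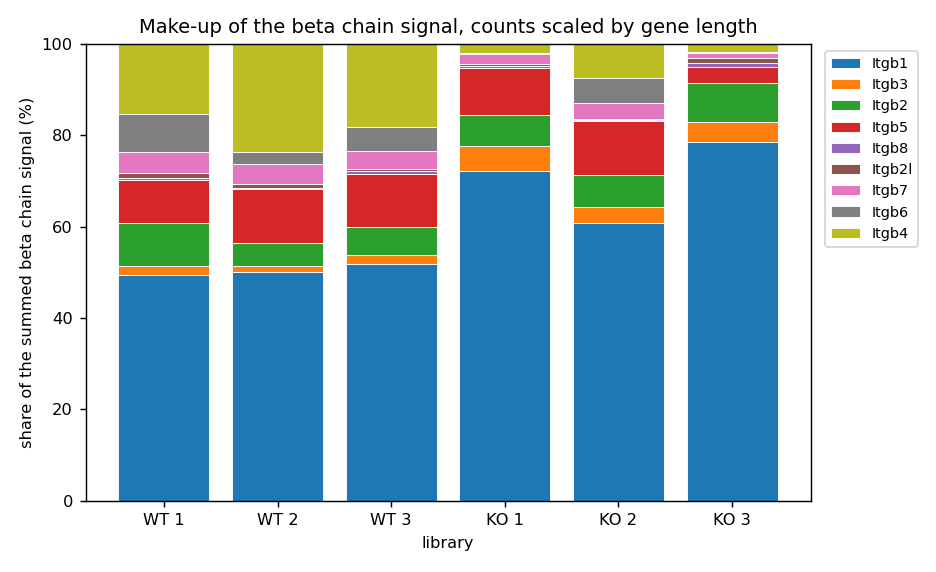
Share of each of 9 chains in the summed CPM per kb of each library, in percent. Itgb1 takes 49.4% to 51.8% of the WT bars and 60.9% to 78.5% of the KO bars, and Itgb4 takes 15.3% to 23.6% and 1.67% to 7.49%.

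KO 3, the library nearly without epithelial transcripts, was also left out. The log2 ratio of Itgb4 was then -1.69 (edgeR, adjusted p = 0.197), that of Itgb3 1.73 (0.170), that of Itgb1 0.83 (0.355) and that of Itgb6 -0.78 (0.723). Itgb1 held 16.1 points more and Itgb4 14.3 points less of the beta chain signal. Itgb4 minus epithelial markers was 0.66 higher under the knockout label, Itgb5 minus the same markers 3.0 higher, and Itgb2l minus neutrophil markers differed by -4.41. The difference of Itgb2 minus Itgal was 0.30 in place of 0.63, and that of Itgb6 minus Itgav was -2.11 in place of -3.08. These differences have a smallest exact two-sided p of 0.2 with 3 libraries against 2, and Itgb4, Itgb3 and Itgb1 had the same direction as with all 6 libraries.

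The members also differed in how they varied among themselves. Over the 6 libraries, the log2 CPM of Itgb1 and Itgb3 had a Pearson r of 0.99, that of Itgb4 and Itgb6 one of 0.87 and that of Itgb1 and Itgb4 one of -0.87. These are descriptions over libraries that share the difference in epithelial and fibroblast markers given above. Among 14321 protein-coding genes outside the family with a mean of at least 1 CPM, the profiles most like Itgb3 were those of Tg (r = 0.998), Col5a2 (0.997) and Slc36a4 (0.996). Those most like Itgb4 were Panx1 and Lrrc1 (both 0.999) and Myo18a (0.998), and those most like Itgb1 were Cacna2d1, Slit3 and Tanc1 (all 0.999). For Itgb7 they were Itgax (0.998), Bicdl1 (0.992) and Il12rb1 (0.992). Over 6 libraries such values are common: 788 genes exceeded 0.95 with Itgb4, 365 with Itgb1, 345 with Itgb3 and 188 with Itgb7.

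The rest of the integrin pathway was described from lists of known components, in which 0 genes passed after adjustment. Counts at an unadjusted p under 0.05 stand beside 11.8% of all genes on the higher and 12.3% on the lower side. Of 18 alpha chains, 17 were tested: 4 were higher and 2 lower at an unadjusted p under 0.05, and the median log2 ratio was 0.14. Besides Itga5, Itga6 and Itga2b, the smallest p belonged to Itga3, the epithelial laminin-binding partner of Itgb1, with 319.9, 218.0 and 320.8 CPM in WT 1 to WT 3 and 77.8, 140.6 and 44.6 CPM in KO 1 to KO 3 (log2 ratio -1.71 ± 0.46 (SE), adjusted p = 0.111). Among these 4 genes, Itga3 and Itga6 were lower and Itga5 and Itga2b higher in all 3 libraries labelled knockout.

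Of 29 genes in a list of integrin activators, adaptors and other regulators, 5 were higher and 1 lower at an unadjusted p under 0.05. All genes had 11.8% and 12.3%. Log2 ratios lay above 0 for 20 of the 29 and below 0 for 9, with a median of 0.35 and a range of -2.70 to 1.54. Fermt2, the kindlin of mesenchymal cells that binds the beta chain tail, had a log2 ratio of 1.54 ± 0.31 (SE; adjusted p = 0.0940). The others with the smallest p were Zyx, a protein of focal adhesions, at 1.03 (adjusted p = 0.132), Tns2, a tensin, at 0.84 (0.149), and Dab2, an endocytic adaptor, at 1.25 (0.150).

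Matrix ligands all had ratios above 0. Of 20 such genes, 11 were higher and 0 lower at an unadjusted p under 0.05, and the median log2 ratio was 1.23 beside 0.06 over all genes. Spp1, osteopontin, a ligand of the alpha V beta 3 receptor, stood at 3.39, 0.886 and 1.71 CPM in the WT libraries and at 29, 9.78 and 8.70 CPM in the KO libraries (log2 ratio 2.99 ± 0.70 (SE), adjusted p = 0.0995). Thbs1, thrombospondin, had a log2 ratio of 2.38 (adjusted p = 0.129), Tnc, tenascin C, one of 1.94 (0.114) and Nid1, a basement membrane linker, one of 1.61 (0.131). Several of these ligands are made by fibroblasts and endothelium, whose markers had higher means under the knockout label, and the part of those cells was not tested.

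Of 8 counter-receptors of leukocyte integrins, 3 were higher and 1 lower at an unadjusted p under 0.05, with a median of 0.86. Madcam1, the vascular ligand of alpha 4 beta 7, stood at 11.6, 7.21 and 15.8 CPM in the WT libraries and at 29.4, 13.5 and 61.4 CPM in the KO libraries, where KO 2 lay within the wild-type range (log2 ratio 1.59 ± 0.57 (SE), adjusted p = 0.162). Of the junctional adhesion molecules, Jam3 and Jam2 had log2 ratios of 1.17 (adjusted p = 0.116) and 1.04 (0.139), and F11r, the one of epithelium, had -1.33 (0.183).

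Of 17 genes of latent TGF-beta and its targets, 9 were higher and 1 lower at an unadjusted p under 0.05, with a median of 0.98. Ccn2, a matricellular target listed in the table under an older symbol, stood at 45.3, 29.7 and 36.8 CPM in the WT libraries and at 84.5, 83.8 and 178.8 CPM in the KO libraries, without overlap (log2 ratio 1.63, adjusted p = 0.0983). The receptor Tgfbr1 had a log2 ratio of 1.47 (adjusted p = 0.111). Smad7, the inhibitory target that dampens the pathway, had -0.86 ± 0.21 (SE; adjusted p = 0.101), opposite in sign to Ccn2. The groups overlapped for both activating chains, Itgb6 and Itgb8, as given above.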

How the data were processed

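Poly-A RNA of 6 distal colon libraries, 3 per label, was compared. The authors deposited whole-number counts per gene with gene lengths and coordinates; adaptor, poly-N and low-quality reads had been removed, per the labels' protocols. The submitters' processing notes name, without roles, the builds GRCm38 and mm10 and the tools DESeq2, featureCounts 1.5.0-p3, HISAT2 2.0.5 and StringTie 1.3.3b. How strand and multi-mapping reads were handled, and the annotation release, is not given in the sources used here. Up to 7.86% of a member's stretches of 31 bases (Itgb5) occur in another annotated gene.

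edgeR 4.0.16 in R 4.3.3 was run on the counts with filterByExpr (minimum count 10, minimum total 15), TMM scaling, a robust quasi-likelihood F test with no covariate, and Benjamini-Hochberg adjustment over 16861 genes with a threshold of 0.05. Log2 CPM used a prior count of 2. Shares and differences per library got an exact permutation test, two-sided, over the 20 assignments. Alternatives used other scalings and filters, DESeq2 1.42.0, limma 3.58.1, a replicate block and each library left out.

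The members and lists were chosen with earlier results of these data known. Named were all members, their alpha partners, the 4 genes with the smallest p in each pathway list, up to 3 leading markers and those at 0, the 3 genes most like each of 4 members, and overlapping genes; 1 gene that this rule names is not reported here. Library pairs within a group differed far beyond sampling noise (chi-square per degree of freedom 50.7 to 253), so none was counted as a copy.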

Additional observations from a re-analysis of the deposited data

How the results depend on the processing

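Itgb1, Itgb2, Itgb3, Itgb4, Itgb6 and Itgb7 kept the direction of their log2 ratio in all 19 alternatives. The number of genes called was 0 in the reported fit, 192 of 30888 with no filter, 2034 of 30748 with DESeq2 and 1395 of 16861 with limma-voom with quality weights. It was 3 of 16861 with the replicate block and 0 to 1813 with each library left out in turn. The highest came without KO 2 (1813 of 17449). The number of members called was 0, against 2 with DESeq2 (Itgb3, Itgb4), 2 with quality weights (the same genes) and 0 to 3 with each library left out, where Itgb3, Itgb4 and Itgb6 were called without KO 2. The replicate block called none of the members. Deviations of same-numbered libraries from their group means had correlations of -0.20, 0.09 and -0.08. Such values cannot show whether the numbers pair the samples, and the labels do not say. Of 238 recomputed shares and differences, 221 kept their sign. The log2 ratio of Itgb2l was 0.031 with upper-quartile scaling, which moves the median of all genes from 0.06 to 0.21. That of Itgb5 was -0.14 with limma-voom, -0.057 with quality weights and -0.094 with the replicate block, that of Itgbl1 was 0.33 with quality weights, and that of Itgb8 was -0.30 without KO 3 and WT 2. Itgb1 minus fibroblast markers was 0.11 with the median of the list. Itgb3 minus platelets was -0.33 with filtered markers and -0.87 with Pf4 alone, both chosen after seeing the data. With each library left out, log2 ratios ran from -1.08 to 0.36 for Itgb2l, -0.27 to 0.43 for Itgb5, -0.57 to 0.61 for Itgbl1 and -0.049 to 1.08 for Itgb8. Share differences ran from -0.41 to 1.76 points for Itgb2, -4.00 to 0.129 for Itgb5 and -0.095 to 0.225 for Itgb8. Differences ran from -0.20 to 0.18 for Itgb2 minus leukocytes, -0.36 to 0.65 for Itgb3 minus platelets, -0.70 to 0.26 for Itgb3 minus Itga2b, -0.42 to 0.15 for Itgb4 minus Itga6 and -0.64 to 0.37 for Itgb8 minus Itgav. Wide ranges without a change of sign were 0.094 to 0.78 for Itgb2, -0.85 to -0.20 for Itgb7, -3.76 to -0.78 for Itgb6, 0.66 to 3.10 for Itgb4 minus epithelium, -0.49 to -0.027 for Itgb1 minus fibroblasts and 0.12 to 1.02 for Itgb3 minus endothelium. The cause of these shifts was not tested. A filter of 10 reads in every library drops Itgbl1, whose 4 to 19 reads per library limit its ratio.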
